A study of Mus musculus with 6 samples.

Results

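The genes described here are the apical polarity and adherens belt core of the neuroepithelium, 10 genes chosen by name from the 55471 gene identifiers counted by RNA-seq. All 10 were found and all 10 could be tested. They fall into the catenins that tie cadherins to actin (Ctnna1, Ctnna2, Ctnnb1), the PAR complex (Pard3, Pard6b, Prkci), the Crumbs complex (Crb2, Mpp5) and the scaffolds between junctions and actin (Tjp1, Afdn). RNA was taken from the rostral end of the mouse telencephalon primordium at E11.5, in 3 control samples (Dicer F/F without Cre, labelled WT) and 3 Rx-Dicer samples (Rx-Cre;Dicer F/F). Both genotypes therefore carried the floxed Dicer alleles, and the Rx-Dicer embryos alone carried Cre. The Rx sequences that drive this Cre act in the early forebrain, and per the study's methods and images recombination at this age is strongest in rostral and ventral telencephalon and low in neocortex. The labels do not say whether a sample is 1 embryo or a pool, so p-values measure the spread between these samples.

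Neuroepithelial cells line the ventricle as a sheet whose apical ends are joined by a belt of adherens junctions. In this belt cadherins of neighbouring cells bind each other, and β-catenin and α-catenin link them to a ring of actin. The PAR and Crumbs complexes mark the apical membrane and keep the belt in place, and loss of either the belt or these complexes is known to disorganise the ventricular surface. Dicer cuts precursor hairpins into mature miRNAs, which pair through their seed with sites mostly in 3′ UTRs and lower the mRNA or its translation.

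Dicer1, the targeted gene, had 6355, 7070 and 6270 normalised counts in the controls and 4777, 7002 and 4644 in the Rx-Dicer samples, in the order of their replicate numbers. The library labelled Rx-Dicer 2, at 7002, lay within the control range. Over all 6 libraries the log2 fold change was -0.26 ± 0.17 (SE, DESeq2 adjusted p = 0.567). Reads from exons outside the deleted segment also count towards Dicer1. Libraries held 34471501 to 48373468 counts on genes, so that the floor of 3 counts was 0.062 to 0.087 CPM (counts scaled to a common library total). Between 24698 and 26034 genes were detected per library.

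Among markers of cell types, Sox2, a transcription factor of neural progenitors, had 11816 to 16466 normalised counts in controls and 9984 to 14562 in Rx-Dicer samples, and the groups overlapped. Of 8 neuroepithelial and radial glial markers DESeq2 called 2 lower, Fabp7 (-0.76) and Sox9 (-0.52), and the summed counts of the list were 151098 to 165850 in controls and 136109 to 152239 in Rx-Dicer samples. Vim (0.17), with all Rx-Dicer values above the controls, and Hes1 (0.22) went the other way. Of 6 microglial markers DESeq2 called 2 higher, Cx3cr1 (1.18) and Csf1r (0.98), with sums of 933 to 1125 and 1076 to 3444. Over all tested genes it called 2.93%. For these 4 called markers the adjusted p was 0.174 to 0.271 with edgeR's quasi-likelihood test and 0.171 to 0.341 with limma-voom, so neither called them. No marker of neurons, endothelium, erythroid cells, head mesenchyme or other epithelium was called, out of 8, 6, 6, 6 and 7. Sums of the epithelial list, whose cells also carry apical junctions, were 500 to 2666 in controls and 717 to 1590 in Rx-Dicer samples. The median log2 fold change of this list was -1.30, from -3.92 (Trp63) to 0.22 (Epcam), and the groups overlapped for all 7 markers. Trp63 had 318, 6.11 and 144 normalised counts in controls and 24.9, 4.08 and 1.9 in Rx-Dicer samples. In bulk tissue fewer cells of a type and less RNA per cell cannot be told apart, and the part of these shifts in the values below was not tested.

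To show what mature miRNAs could pair with in the 10 mRNAs, the seeds of let-7, a family that the study examines, and of miR-9, which is abundant in the embryonic brain, were searched in their 3′ UTRs. The mature sequences are from RefSeq (GRCm38.p6), with the seed (bases 2 to 8) in capitals. The seed of let-7a-5p is shared by 11 mature miRNA names in that table.
let-7a-5p: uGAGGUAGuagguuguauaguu
miR-9-5p: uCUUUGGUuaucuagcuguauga

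The words searched on the transcribed strand of the longest annotated 3′ UTR of each gene were CTACCTC for let-7 and ACCAAAG for miR-9. Each 7-base word is contained in an 8-base form ending in A, CTACCTCA or ACCAAAGA. Of the 10 genes, 2 held a let-7 word (Crb2 and Pard6b) and 3 a miR-9 word (Ctnna1, Pard3 and Tjp1). The other 5, Ctnna2, Ctnnb1, Prkci, Mpp5 and Afdn, held neither. The Pard3 word lies far inside the gene, which ends at 127612286, so longer Pard3 transcripts may not hold it. Among 14054 tested genes with a 3′ UTR, 10.8% held the 7-base let-7 word and 14.3% that of miR-9, for a median UTR length of 1217 bases against 2101 bases in these genes. Sites of Crb2, Pard6b, Pard3 and Tjp1 are shown with flanking bases and with the word in capitals, and the site of Ctnna1 is described without its sequence.
Crb2, let-7, 8-base, chr2:37797372-37797379, plus strand: aacctgtctgcCTACCTCAcatcacacggc
Crb2, let-7, 7-base, chr2:37798772-37798778, plus strand: gggaaggagggCTACCTCtctggcctaga
Pard6b, let-7, 7-base, chr2:168100546-168100552, plus strand: tatttcacataCTACCTCtctcttctctc
Pard3, miR-9, 7-base, chr8:127401877-127401883, plus strand: tcagaaatgtgACCAAAGgccaaacctaa
Tjp1, miR-9, 7-base, chr7:65296981-65296987, minus strand: tagggaaggacACCAAAGcatgtgagccc

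Crb2 was the member with a pair of let-7 words, at 700 and 2100 bases after the stop codon, the first in the 8-base form. Of 2617 UTRs within 25% of its length of 2431 bases, 14.6% held the 7-base and 5.16% the 8-base let-7 word. Ctnna1 held the 8-base miR-9 word 240 bases after its stop codon, a form found in 2.35% of 2217 UTRs of like length. Such a match is a description of the sequence and does not show that the site is used, and a UTR without a match may hold sites for other miRNAs.

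The comparison of genotypes asked whether transcripts of the polarity and belt core differed between Rx-Dicer and control samples. A call required an adjusted p below 0.05 and a log2 fold change beyond 0.32 either way. None of the 10 genes was called, beside 2.93% of 17128 tested genes (1.75% called higher and 1.18% lower). An unadjusted p under 0.05 was reached by 1 gene, Tjp1, against 13.1% of all tested genes. The log2 fold changes ranged from -0.25 (Ctnna2) to 0.25 (Crb2), with a median of 0.09 beside -0.00087 over all tested genes. Of the 10, 7 had a positive fold change, beside 49.9% of tested genes, but only 4 did with a correction for gene length and GC content, under which the median of the 10 was -0.041 and that of all tested genes -0.051. Rx-Dicer values lay wholly above the controls for 2 genes (Tjp1 and Afdn; 8.55% of tested genes) and wholly below for 1 (Ctnnb1; 10.7%).

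The absence of a call was set beside the size of change that the samples could still hold. A test of whether a change is smaller than 1.5-fold, adjusted over all genes, placed 9 of the 10 inside that limit, all but Ctnna2, beside 48.7% of all tested genes. At the narrower limit used for calls, 0.32 on the log2 scale, none of the 10 and 0% of tested genes passed, so smaller changes cannot be bounded in this way. The median coefficient of variation of these genes was 5.56% in controls and 6.04% in Rx-Dicer samples, against 10.9% and 12.8% over all tested genes. Median absolute log2 fold changes were 0.12 for the 10 and 0.16 for tested genes. The lowest value of any of the 10 in any library was 882 normalised counts, far above the floor. By level per length all 10 stood at or above the 58.7 percentile of tested genes. Spread and the 1.5-fold test depend on level, and genes of like level were not set beside these 10.

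**Figure D1:**
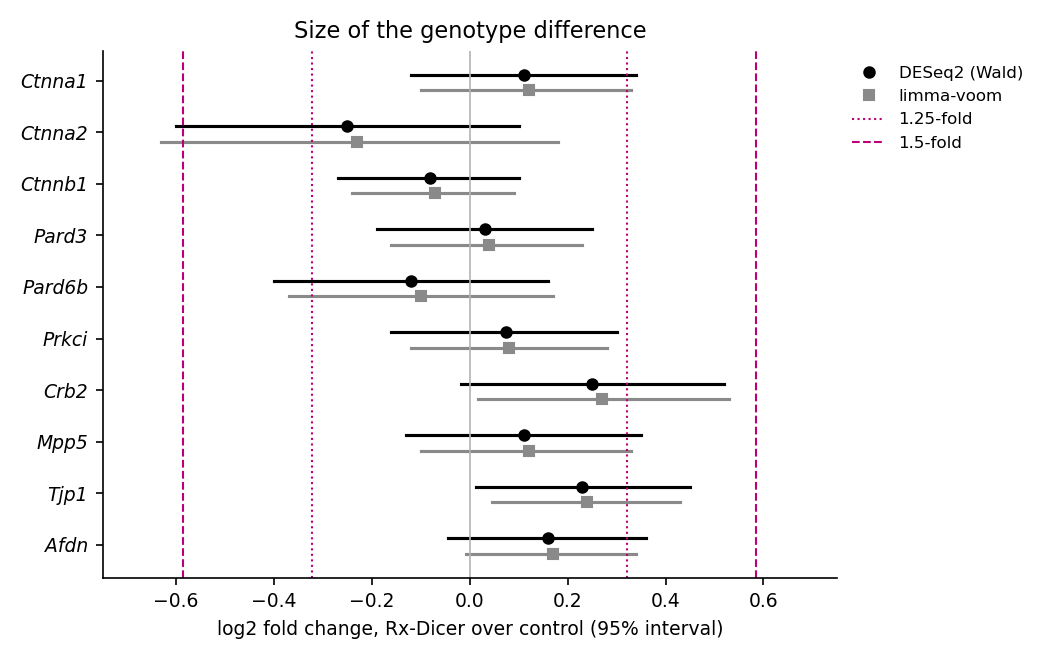
Log2 fold change of each gene (Rx-Dicer over control, 3 samples each) with its 95% interval from DESeq2 (black circles) and limma-voom (grey squares), with dotted lines at the log2 change of 0.32 used for calls and dashed lines at 1.5-fold either way. The DESeq2 intervals lie within the 1.5-fold lines for 9 genes, and that of Ctnna2 reaches past the lower line at -0.60.

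Ctnnb1 (ENSMUSG00000006932, GRCm38 chromosome 9, 120929216 to 120960507, plus strand) encodes β-catenin, which binds the tails of cadherins and also acts in Wnt signalling. The controls had 66922, 67032 and 67376 normalised counts and the Rx-Dicer samples 62885, 62866 and 64627. The control libraries lay within a coefficient of variation of 0.353%, the smallest of the 10 genes, and all 3 Rx-Dicer libraries were below them. The difference was -5.44% (95% interval -16.8 to 7.48%), a log2 fold change of -0.081 ± 0.094 (SE, DESeq2 adjusted p = 0.851). Over the alternatives it stayed negative, from -0.12 to -0.063. The standard error of DESeq2 draws on the spread of genes of like level and is wider than the spread of these 6 values. An exact two-sided permutation test gives 0.1 for any such separated gene, the smallest p that 3 against 3 samples allow.

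Ctnna1 (ENSMUSG00000037815, chromosome 18, 35118859 to 35254779, plus strand) encodes αE-catenin, the general α-catenin of epithelia. Counts of 12572, 11210 and 12802 in controls stood beside 12069, 14043 and 13284 in Rx-Dicer samples. Controls 1 and 3 lay between Rx-Dicer 1 and 3, so the groups overlapped. The log2 fold change was 0.11 ± 0.12 (SE, DESeq2 adjusted p = 0.835). It was 0.05 without control 2, 0.06 without Rx-Dicer 2 and 0.046 with the length and GC correction.

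Ctnna2 (ENSMUSG00000063063, chromosome 6, 76881637 to 77979699, minus strand) encodes αN-catenin, the α-catenin typical of neurons. It had 3093, 2088 and 2304 normalised counts in controls and 2315, 2263 and 1708 in the Rx-Dicer samples. Control 1 was the highest and Rx-Dicer 3 the lowest, and the other 4 libraries lay together between 2088 and 2315. At -0.25 ± 0.18 (SE, DESeq2 adjusted p = 0.638) the log2 fold change was the most negative and least precise of the 10, and it was -0.069 without control 1. Of the 8 neuronal markers, whose summed counts were 62703 to 79181 in controls and 52518 to 70383 in Rx-Dicer samples, 1 had groups that did not overlap, beside 19.3% of all tested genes. The median log2 fold change of these markers was -0.17, from -0.84 to 0.022. Their part in the Ctnna2 values was not tested.

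Among the PAR genes, Pard3 (ENSMUSG00000025812, chromosome 8, 127063893 to 127612286, plus strand) encodes the scaffold that brings the complex to junctions. Controls had 4743, 4870 and 4513 normalised counts and Rx-Dicer samples 5218, 4506 and 4712. Rx-Dicer 1 was the highest and Rx-Dicer 2 the lowest of all 6, so the mutants enclosed the controls. The log2 fold change of 0.032 ± 0.11 (SE, DESeq2 adjusted p = 0.97) was the smallest of the 10, with an interval of -12.4 to 19.3%, and it was -0.032 without Rx-Dicer 1 and 0.082 without Rx-Dicer 2.

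Pard6b (ENSMUSG00000044641, chromosome 2, 168081004 to 168101203, plus strand) encodes a PAR6 adaptor that joins Cdc42 to atypical protein kinase C. Of the 10 genes it had the lowest counts, 1024, 1105 and 882 in controls and 899, 894 and 982 in the Rx-Dicer samples. The control range enclosed all 3 Rx-Dicer values. Its log2 fold change was -0.12 ± 0.14 (SE, DESeq2 adjusted p = 0.859). It was -0.042 without control 2 and -0.20 without control 3. A link between its let-7 word and its level was not tested.

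Prkci (ENSMUSG00000037643, chromosome 3, 30995747 to 31052959, plus strand) encodes the atypical protein kinase C iota, the kinase of the PAR complex. The 3 controls had 3205, 2884 and 3082 normalised counts, the mutants 2971, 3331 and 3343. Rx-Dicer 2 and 3 lay above all controls and Rx-Dicer 1 among them. The log2 fold change was 0.073 ± 0.12 (SE, DESeq2 adjusted p = 0.909), and leaving out single libraries gave 0.033 (without control 2) to 0.12 (without Rx-Dicer 1).

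Crb2 (ENSMUSG00000035403, chromosome 2, 37776249 to 37799103, plus strand) encodes the transmembrane core of the Crumbs complex. In controls it had 3876, 4903 and 3686 normalised counts, and in Rx-Dicer samples 5097, 4845 and 4905. The Rx-Dicer samples lay close together, controls 1 and 3 stood well below them, and control 2 was level with them. Its log2 fold change of 0.25 ± 0.14 (SE, DESeq2 adjusted p = 0.439) was the highest of the 10 and its interval ran from -1.2 to 43.6%. The result rested on control 2: without it the log2 fold change was 0.39 and Crb2 was called (DESeq2 adjusted p = 0.0307). Over the 19 alternatives its adjusted p ranged from 0.0307 to 0.772, and the log2 fold change stayed positive, from 0.17 to 0.39. This is the gene with the let-7 words shown above, and a link between the word and the level was not tested.

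Mpp5 (ENSMUSG00000021112, chromosome 12, 78748907 to 78840714, plus strand) encodes PALS1, which binds Crumbs tails and its partner PATJ. Controls had 2199, 2294 and 2208 normalised counts, and Rx-Dicer samples 2163, 2568 and 2519. Rx-Dicer 2 and 3 were above all controls and Rx-Dicer 1 was below them. Its log2 fold change of 0.11 ± 0.12 (SE, DESeq2 adjusted p = 0.827) became 0.072 without Rx-Dicer 2 and 0.19 without Rx-Dicer 1.

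Tjp1 (ENSMUSG00000030516, chromosome 7, 65296165 to 65527781, minus strand) encodes ZO-1, a scaffold that binds α-catenin, afadin and actin and in neuroepithelium sits at the apical belt. It had 6923, 6412 and 6183 normalised counts in controls and 7150, 7792 and 7939 in the Rx-Dicer samples. The lowest Rx-Dicer value lay above the highest control value. The difference was 17.2% (95% interval 0.817 to 36.3%), or 0.23 ± 0.11 on the log2 scale (SE). DESeq2 gave an unadjusted p of 0.0389 and an adjusted p of 0.336, and Tjp1 ranked 1982 of 17128 tested genes by p. With limma-voom the unadjusted p was 0.0215 for Tjp1 and 0.0399 for Crb2, and 13% of all genes tested with that tool had one under 0.05. Tjp1 was not called, and over the alternatives the log2 fold change ranged from 0.13 to 0.27 and the adjusted p from 0.125 to 0.906.

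Afdn (ENSMUSG00000068036, chromosome 17, 13760539 to 13906150, plus strand) encodes afadin, which links nectins to actin beside the cadherins. It had 7785, 7517 and 7206 normalised counts in controls against 8616, 8518 and 7998 in Rx-Dicer samples, without overlap. The log2 fold change of 0.16 ± 0.10 (SE, DESeq2 adjusted p = 0.583) had an interval of -3.06 to 28.6%, and it was 0.055 with the length and GC correction. Both scaffolds thus stood above the controls in all Rx-Dicer libraries, without passing the test.

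**Figure D2:**
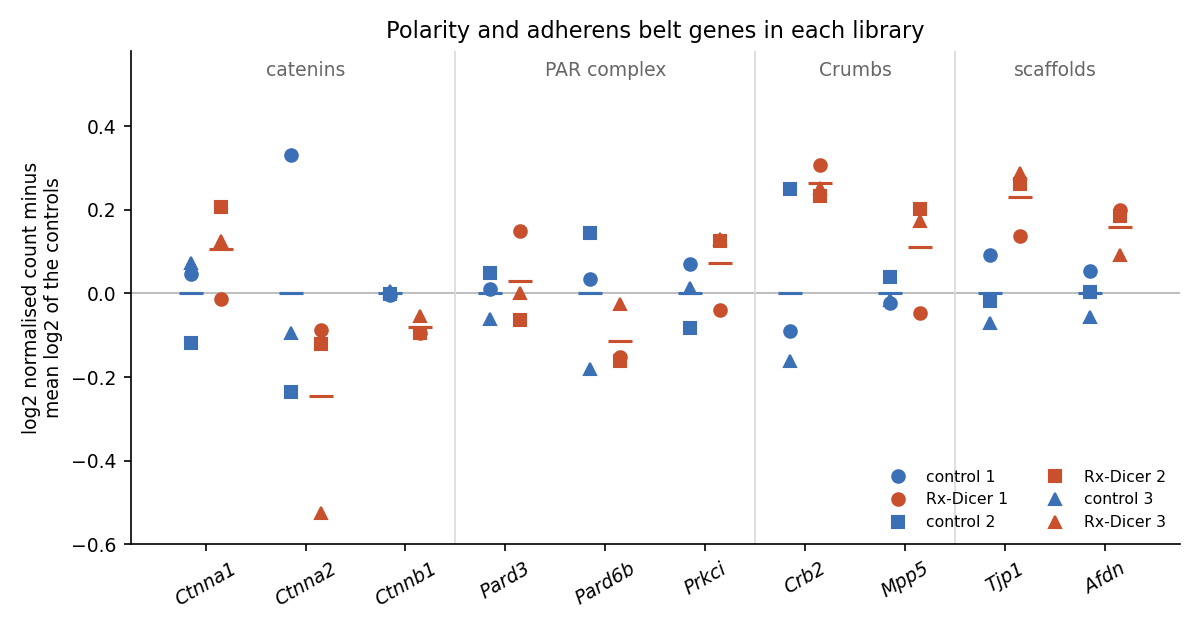
Log2 normalised count of each gene in each library, minus the mean log2 count of the 3 controls, with blue for controls, orange for Rx-Dicer samples, marker shape for the replicate number and a bar for the group mean. Only Ctnnb1 (lower) and Tjp1 and Afdn (higher) show groups without overlap, and for Crb2 control 2 sits among the Rx-Dicer samples.

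The libraries were also compared over the 10 genes together. The median over the 10 of the log2 difference from the control mean was 0.041, 0.00091 and -0.059 in controls 1 to 3. It was -0.026, 0.15 and 0.11 in Rx-Dicer 1 to 3, while over all tested genes these medians lay between -0.0089 and 0.0088. Rx-Dicer 1, a library with low Dicer1, was thus within the controls. Rx-Dicer 2, the library with Dicer1 at the control level, and Rx-Dicer 3 lay above all 3 controls. Without Rx-Dicer 2 no gene of the 10 was called either, and their median log2 fold change was 0.066. The genes whose pattern over the 6 libraries was most like that of Tjp1, by Pearson r of the log2 counts among 9674 genes with a mean of at least 500 counts, were Rlim (r = 0.993), Rasa1 (0.993) and Foxj3 (0.992). As the highest of 9674 values over only 6 libraries, such r can arise without a link between the genes. A link was not tested.

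Levels of different genes were compared per length, as normalised counts per kb of exon, with the SD over 3 samples. In controls Ctnnb1 was highest, at 12926 ± 45.6, which is 6.81 times the 1898 ± 134 of Ctnna1 and in the 99.3 percentile of tested genes. Tjp1 (833 ± 48.5), Afdn (734 ± 28.4), Crb2 (620 ± 97.7) and Prkci (551 ± 29.2) followed. Ranges of neighbours in this stretch overlapped for Afdn and Crb2 and for Crb2 and Prkci. Ctnna2 (359 ± 76.1), Pard3 (325 ± 12.5), Pard6b (295 ± 33.2) and Mpp5 (254 ± 5.98) were lowest, and each of the first 3 overlapped with the next. In Rx-Dicer samples the first 6 places were the same, from 12223 ± 195 for Ctnnb1 to 579 ± 38.1 for Prkci. There Pard3 (332 ± 25.2), Ctnna2 (302 ± 48.4), Mpp5 (275 ± 25.2) and Pard6b (272 ± 14.6) took the last 4 places in another order, and all neighbours among them overlapped. Even the lowest member stood in the 58.7 percentile of tested genes.

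For 6 of the genes the paralogues are described, to ask whether a member's share of its family differed between genotypes. β-catenin made up 98.3% of the per-length level that it shares with Jup (plakoglobin) in controls and 98.2% in Rx-Dicer samples, and Crb2 96.5% and 97.8% of the Crumbs genes. Prkci held 85.5% and 86.8% of the atypical kinases, against Prkcz. Pard6b was not the main PAR6 gene: it held 21.7% and 21.6%, while Pard6g was at 798 ± 22.2 per kb in controls and 775 ± 50.8 in Rx-Dicer samples. Pard6a was at 269 ± 9.76 and 215 ± 31.4, with all Rx-Dicer values below the controls and no call (DESeq2 adjusted p = 0.44). Ctnna2 held 18.5, 14.7 and 14.3% of the α-catenin level in controls and 15.1, 13 and 10.6% in the Rx-Dicer samples, with overlap (exact two-sided permutation test, p = 0.3). Pard3 held 81.5, 82.5 and 84.6% against 79.7, 81.2 and 78.3%, without overlap. Pard3b was at 67.3 ± 9.49 in controls and 84.4 ± 10.8 in Rx-Dicer samples, and its own groups overlapped. For the Pard3 share the exact two-sided p was 0.1, the smallest possible, and the adjusted value over the 7 families tested was 0.525. None of these shares passed the test, which could not go under 0.05 with these sample numbers.

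**Figure D3:**
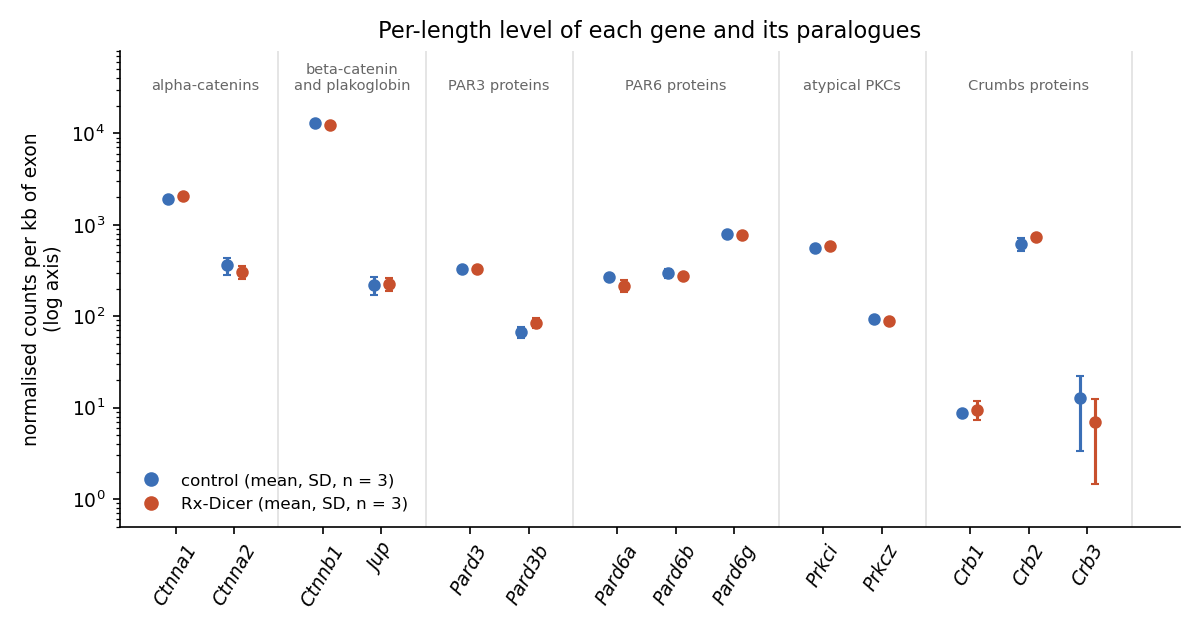
Normalised counts per kb of exon (log axis) of 7 members and their paralogues in 6 families, as mean and SD of 3 controls (blue) and 3 Rx-Dicer samples (orange); Ctnna3, near 0 in both groups, is not drawn. Ctnnb1 stands far above Jup in both genotypes and Pard6g lies above Pard6b.

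The wider pathway was described with 66 further genes listed by role, of which 64 were tested. DESeq2 called 3 of them, 2 higher and 1 lower, which is 4.69% of those tested beside 2.93% of all tested genes. Their median log2 fold change was 0.062. Neither edgeR's quasi-likelihood test nor limma-voom called any of the 66, where over all genes these tools called 0.0446% and 0.039%, and 12.9% and 13% had an unadjusted p under 0.05.

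Myh9, the heavy chain of nonmuscle myosin IIA, which pulls on the actin ring, had 11153, 10760 and 12278 normalised counts in controls and 19665, 16612 and 15434 in the Rx-Dicer samples. All Rx-Dicer libraries were above the controls, and the log2 fold change was 0.60 ± 0.13 (SE, DESeq2 adjusted p = 0.000822). It was called in each fit that left out 1 library, whereas the edgeR adjusted p was 0.117. The microglial marker sum was 933 to 1125 in controls and 1076 to 3444 in Rx-Dicer samples, and Myh9 is also made by blood and mesenchymal cells. In Rx-Dicer 2, where Myh9 was 16612, the microglial markers Cx3cr1 (282) and Csf1r (354) lay within the control range. Both were highest in Rx-Dicer 1 (796 and 938), where Myh9 was also highest. The endothelial markers Cdh5 (896) and Kdr (937) were lowest in Rx-Dicer 3, which had the lowest Myh9 of the mutants. They were highest in Rx-Dicer 2 (2522 and 2307), where Myh9 was not. Median log2 fold changes were 0.08 for erythroid, 0.069 for head mesenchyme and 0.089 for endothelial markers. The part of these cells in the Myh9 values was not tested.

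Shroom4, of a family of actin-binding proteins that act with myosin, had 640, 659 and 809 normalised counts in controls and 1102, 1050 and 900 in the Rx-Dicer samples, without overlap. The log2 fold change was 0.53 ± 0.16 (SE, DESeq2 adjusted p = 0.0322). This call was held by 8 of 19 alternatives and was lost without control 1 (0.116), control 2 (0.211), Rx-Dicer 1 (0.111) or Rx-Dicer 2 (0.0866). Over all 9 genes of the apical actomyosin group the median log2 fold change was 0.26 (0.068 with the length and GC correction), 6 had Rx-Dicer values wholly above the controls (8.55% over all tested genes), and summed counts were 49209 to 52920 in controls and 55512 to 60806 in Rx-Dicer samples. Without Myh9 the sums of the other 8 genes overlapped, at 38057 to 40642 in controls and 40077 to 43261 in Rx-Dicer samples. The largest part of these sums was Myh10 (nonmuscle myosin IIB), with 24674 to 28345 counts per library. Myh10, the group's most highly expressed gene per length, was at -0.023 ± 0.11 (SE, DESeq2 adjusted p = 0.981). Among the other 8 genes, Shroom2, Shroom3, Shroom4, Rock1 and Rock2 had every Rx-Dicer value above the controls. For Myh10, Myh14 and Lmo7 the groups overlapped.

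Cdh4, R-cadherin, was the gene called lower. It had 2567, 2734 and 2621 normalised counts in controls and 2134, 1885 and 1806 in the Rx-Dicer samples, without overlap, with a log2 fold change of -0.44 ± 0.12 (SE, DESeq2 adjusted p = 0.0168). The call was lost without control 2 (0.102), control 3 (0.0541) or Rx-Dicer 3 (0.0548), and with the replicate number as a block (0.0778). Cdh2, N-cadherin, the main cadherin of the neuroepithelial belt and a binding partner of the catenins above, had 22373, 18738 and 17914 in controls and 16419, 17649 and 17773 in the Rx-Dicer samples. All its Rx-Dicer values were below the controls, though Rx-Dicer 3 only narrowly. The log2 fold change was -0.19 ± 0.12 (SE, DESeq2 adjusted p = 0.591), and -0.086 without control 1, where Cdh2 was highest. Summed counts of the 11 cadherins, nectins and further catenins were 41405 to 49360 in controls and 38981 to 40309 in Rx-Dicer samples, with Cdh2 as the largest part. Of the 10 tested, 4 had a fold change above 0 and the median was -0.11 (-0.18 to -0.042 over the alternatives). Groups did not overlap for 2 of them, beside 19.3% of all tested genes.

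No gene was called in the remaining groups. Among 8 further PAR genes, 2 had groups that did not overlap, beside 19.3% of tested genes. The most abundant of them per length, Cdc42, which activates the complex, was at 0.10 (0.0062 with the length and GC correction or without Rx-Dicer 3, 0.029 without control 2 and 0.20 without control 1). Pard3b, with the smallest p of the group, was at 0.33 ± 0.16 (SE, DESeq2 adjusted p = 0.365). The 7 tested Crumbs genes had a median of -0.071, which ranged from -0.17 with the length and GC correction to 0.12 without control 1. Lin7c, which binds Mpp5, was at 0.075, and Crb3 had only 0.951 to 30.5 normalised counts per library. Of 11 junction scaffolds and JAMs 11 had a fold change above 0, and 7 to 11 did over the alternatives. Their median was 0.16 (0.062 with the length and GC correction), and 2 had groups that did not overlap, again beside 19.3%. Jam3 was at 0.087 and Plekha7, which binds p120-catenin, at 0.25 ± 0.14 (SE, DESeq2 adjusted p = 0.449). Among 6 genes of the apical surface the median was 0.078 (0.015 with the length and GC correction). Rdx (radixin) was at 0.062, and Ezr (ezrin), at 0.37 ± 0.18 (SE, DESeq2 adjusted p = 0.359), was called without control 1 (0.62, adjusted p = 0.000154). The 11 basolateral polarity genes had a median of 0.062, which was -0.028 without control 1 and -0.013 without Rx-Dicer 1, with Llgl1 at -0.14 and Dlg1, whose groups did not overlap, at 0.21 ± 0.12 (SE, DESeq2 adjusted p = 0.498). Numb, an endocytic adaptor found at the belt, was at 0.10.

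**Figure D4:**
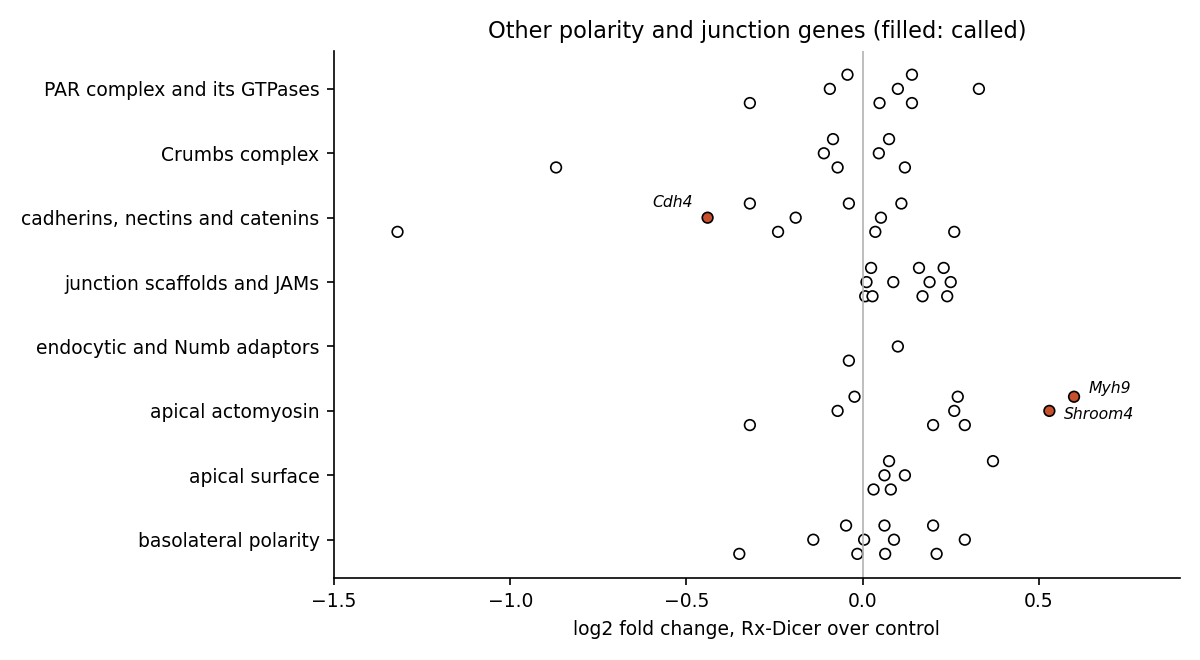
Log2 fold change (Rx-Dicer over control) of the 64 tested pathway genes by role, with filled circles for the 3 genes called by DESeq2. Myh9 and Shroom4 lie at 0.60 and 0.53 in the actomyosin group and Cdh4 at -0.44 among cadherins, while the other groups hold no call.

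The signs of the 10 fold changes were set against the processing. Under TMM or total-count scaling, other filters, either sequencing file alone, edgeR and limma-voom, 7 of the 10 remained positive, and with the length and GC correction Pard3, Prkci and Mpp5 turned negative at -0.064, -0.018 and -0.087. Ctnna1, Crb2, Tjp1 and Afdn kept a positive and Ctnna2, Ctnnb1 and Pard6b a negative sign in all the alternatives run.

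**Figure D5:**
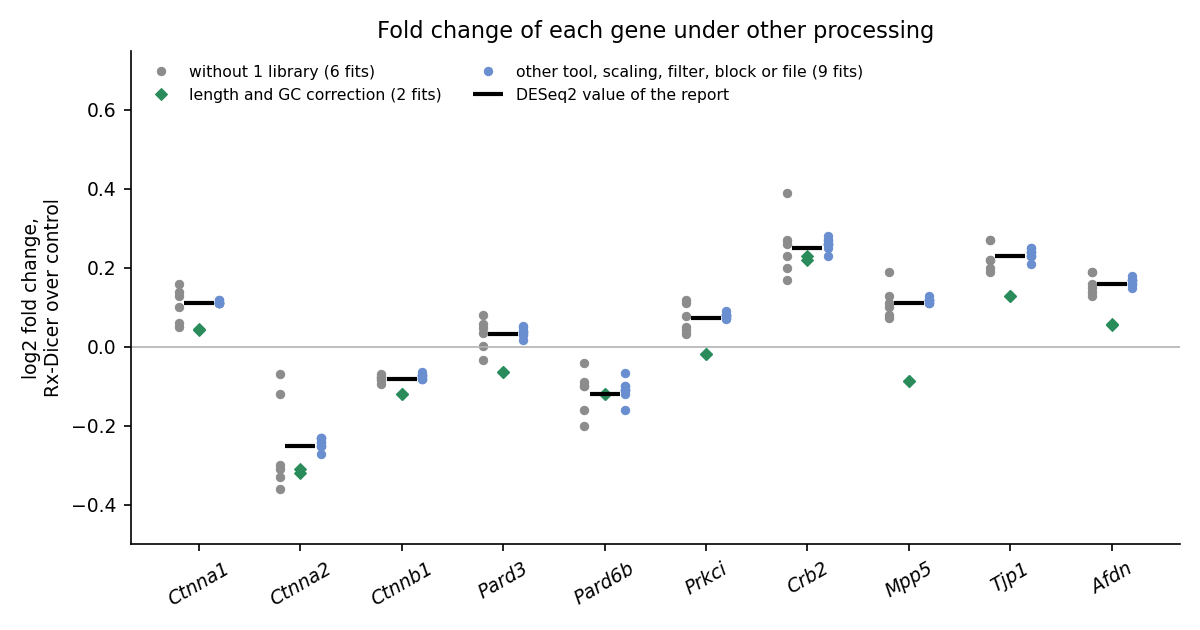
Log2 fold change of each gene in DESeq2 (black bar), in 6 fits that each left out a library (grey), in 2 fits with a length and GC correction (green diamonds) and in 9 other fits (blue). Leaving out control 2 raises Crb2 to 0.39, and the correction moves Pard3, Prkci and Mpp5 below 0.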

How the data were processed

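Strand-specific libraries were read as 100 bp pairs. Per the study's methods the authors trimmed reads with Trim Galore 0.6.5, mapped them to GRCm38.p6 with HISAT2 (version not given in the sources used here) and tallied them over Ensembl genes with HTSeq 0.12.4 (version per the submitters' processing notes) in union mode on the reverse strand. The deposited values were raw counts per gene. Reads on several genes or places were not counted, and genes on opposite strands do not share reads. Reads not assigned to any gene were 24.9 to 31.0% of each library and were left out.

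Each of the 6 samples had 2 files. Chi-square per degree of freedom was 1.11 to 1.47 between the files of a sample and 20.5 to 29.6 between samples of a group, so the files were summed as repeat runs, with n = 3 per genotype. Floors cover counting error only, since the reads carry no molecular identifiers.

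Genotypes were compared over all genes by DESeq2 1.42.0 (Wald test, run in R 4.3.3), as in the study. Scaling was by median of ratios, genotype was the only term, fold changes were not shrunken and p-values were adjusted by Benjamini-Hochberg after independent filtering. Genes past 1.25-fold with an adjusted p below 0.05 were called. The same tool tested for changes smaller than 1.25-fold and 1.5-fold. Alternatives were edgeR's quasi-likelihood test (edgeR 4.0.16) and limma-voom (limma 3.58.1) where 3 or more samples had 10 or more counts, TMM and total-count scaling, other filters and thresholds, each file alone, the replicate number as a block, a length and GC correction by splines (5 degrees of freedom, pseudocount 0.5), and leaving out each library. Shares within families used exact permutation tests. Levels per length used union exons of GENCODE vM21 (GRCm38), which also gave UTRs. Fits were tested on simulated data.

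The members, gene lists and tests were chosen with earlier results of these data known. Named genes were the 10 members, their paralogues, every pathway gene called, the most abundant gene per length and the gene with the smallest p in each pathway group, and 3 genes of like pattern. Markers named among cell types are those called, Sox2, the neuroepithelial markers with a positive fold change, and the lowest and highest of the epithelial list. Values of 1 paralogue and its family share are not reported here. Small RNA libraries were not analysed here.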

Additional observations from a re-analysis of the deposited data

How the results depend on the processing

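The count of called members was 0 in DESeq2 and in 18 of 19 alternatives and 1 without control 2 (range 0 to 1 over the 6 fits that left out a library), where the call was Crb2. The count of called pathway genes was 3 in DESeq2, 0 with edgeR, 0 with limma-voom, 1 with the replicate block, and 2 to 3 over the fits that left out a library. The median log2 fold change of the members was 0.09, from 0.054 to 0.13 over those fits, and changed sign to -0.041 with the length and GC correction and to -0.042 with the replicate block and that correction. The median of all tested genes moved the same way but less far, from -0.00087 to -0.051 and -0.05. None of the members was inside a log2 change of 0.32 by DESeq2 in any fit that left out a library (0 to 0), 3 were by the limma-voom 95% interval, and 9 were at the 1.5-fold limit.

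With the correction alone or with the replicate block, Pard3 reversed to -0.064 and -0.064, Prkci to -0.018 and -0.019, Mpp5 to -0.087 and -0.086, Lin7c to -0.12 and -0.12, and Rdx to -0.029 and -0.028. Over the fits without 1 library Pard3 ranged from -0.032 to 0.082, Lin7c from -0.00073 to 0.15 and Myh10 from -0.065 to 0.023. Differences in family share (percentage points) ranged from -1.3 to 0.75 for Pard6b and from -0.31 to 0.058 for Ctnnb1. The cause of these changes was not tested.

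Replicate numbers come from the sample titles and join different animals. Deviations of same-numbered samples correlated at 0.29, -0.015 and -0.26 over 14165 genes, and those of differently numbered samples at -0.27 to 0.31, so the numbers were not taken to pair the samples. The study describes littermates, and the labels do not tie samples to litters. The replicate block gave 314 calls over all genes against 502 without it, and 0 of the members.

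Samples of a group differed by 20.5 to 29.6 chi-square per degree of freedom and repeat runs by 1.11 to 1.47, so the spread between the 3 samples of a genotype, more than depth, limits precision.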
